A study of Mus musculus with 21 samples.

Results

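Spiral ganglion neurons carry sound signals from the hair cells of the cochlea to the brain, and the neurons of the cochlear base encode high frequencies. The comparison set basal neurons that expressed a dominant-negative HCN2 channel (DN-HCN2) against basal neurons that expressed a truncated SK3 channel (truncated SK3), 3 libraries against 3. These 6 of the 21 libraries of the series were taken by their labels, and all 14968 genes that passed a low-count filter were compared. Both constructs were carried by an adeno-associated virus. The mice were at postnatal day 7, and each library held the polyadenylated RNA of about 50 neurons drawn by micropipette and amplified by the Smart-seq2 method. The remaining groups were 4 libraries of DN-HCN2 apex, 3 of truncated SK3 apex, 4 of control apex and 4 of control base. Control mice, labelled WT, received the same kind of virus with EGFP. Libraries of a group are labelled biological replicates with no animal named, so the p-values measure the spread between libraries. In the main test of genes, that spread was estimated per gene over the 6 groups of all 21 libraries, not over the compared libraries alone. The promoter that drove each construct, the serotype and the share of drawn neurons that carried it are not given in the sources used here.

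HCN2 is a channel for sodium and potassium ions that opens when the membrane hyperpolarizes and helps set the resting potential and rhythmic firing. SK3, encoded by Kcnn3, is a potassium channel that opens when calcium rises in the cell and contributes to the hyperpolarization after a spike. Dominant-negative subunits assemble with the native ones and lower the current. Before hearing begins, the immature cochlea drives bursts of activity in these neurons. Schwann cells and satellite glia wrap the axons and cell bodies of spiral ganglion neurons, so their RNA can enter a drawn sample.

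The libraries were of like depth, with 14121283, 10825369 and 11348551 counts in DN-HCN2 base, against 10411634, 12521752 and 10781385 counts in truncated SK3 base. Across genes, Spearman correlations were 0.875 to 0.915 among the DN-HCN2 base libraries and 0.932 to 0.948 among the truncated SK3 base libraries. Summed spiral ganglion neuron markers came to 11104, 14114 and 19018 CPM (counts scaled to the library total) in DN-HCN2 base, against 19212, 22308 and 22144 CPM in truncated SK3 base. All 6 libraries thus held the defining neuron markers, and the sum was lower in the DN-HCN2 base libraries. In an exact two-sided permutation test of 3 against 3 libraries this sum gave p = 0.1, the smallest p that this design allows. Calb2, also a marker of a type I neuron subtype, was 1 of the 15 markers summed and was lower in every DN-HCN2 base library. It had 2716, 2599.6 and 4213 CPM in DN-HCN2 base, against 7174, 7301 and 7897 CPM in truncated SK3 base. Of the 15 markers, 10 had a negative and 5 a positive log2 fold change. The sum without Calb2 was not tested, so the lower sum cannot be read as a fall of neuron markers in general.

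The libraries also differed in markers of other cells, as the plot of marker sums shows for 7 lists, and some libraries stood apart. Schwann and satellite glia markers summed to 10220, 11484 and 15021 CPM in DN-HCN2 base, against 46724, 19927 and 25098 CPM in truncated SK3 base, with 15384 to 29344 CPM in control base. Every DN-HCN2 base library was below every truncated SK3 base library (exact permutation p = 0.1). Oligodendrocyte markers came to 151, 48.7 and 68.6 CPM in DN-HCN2 base, against 5006, 103 and 187 CPM in truncated SK3 base (exact permutation p = 0.2). Truncated SK3 base replicate 1 thus stood apart among the 6 libraries. Control base had 2062, 58.2, 1667 and 1116 CPM, so high sums of these markers were not confined to that library. Of that list, Nkx6-2 was at 0 in all DN-HCN2 base libraries. Macrophage markers came to 29.5, 1755 and 1175 CPM in DN-HCN2 base, against 95.9, 76.6 and 25.0 CPM in truncated SK3 base, so DN-HCN2 base replicates 2 and 3 stood apart (exact permutation p = 0.3). Supporting cell markers came to 2854, 433 and 1318 CPM in DN-HCN2 base, against 377, 374 and 812 CPM in truncated SK3 base. Fibroblast and matrix markers came to 7337, 3147 and 1945 CPM in DN-HCN2 base, against 1625, 2165 and 3469.7 CPM in truncated SK3 base, so DN-HCN2 base replicate 1 stood apart in both lists. It was also the highest in cell division genes, at 581 CPM, while the other 5 libraries had 89.5 to 395 CPM. Truncated SK3 base replicate 3 was the highest in endothelial and pericyte markers, at 466 CPM, while the other 5 had 28.4 to 172 CPM. The part of these cells in any difference below was not tested beyond the fits without these libraries, and fewer cells of a type and less RNA per cell cannot be told apart.

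**Figure D1:**
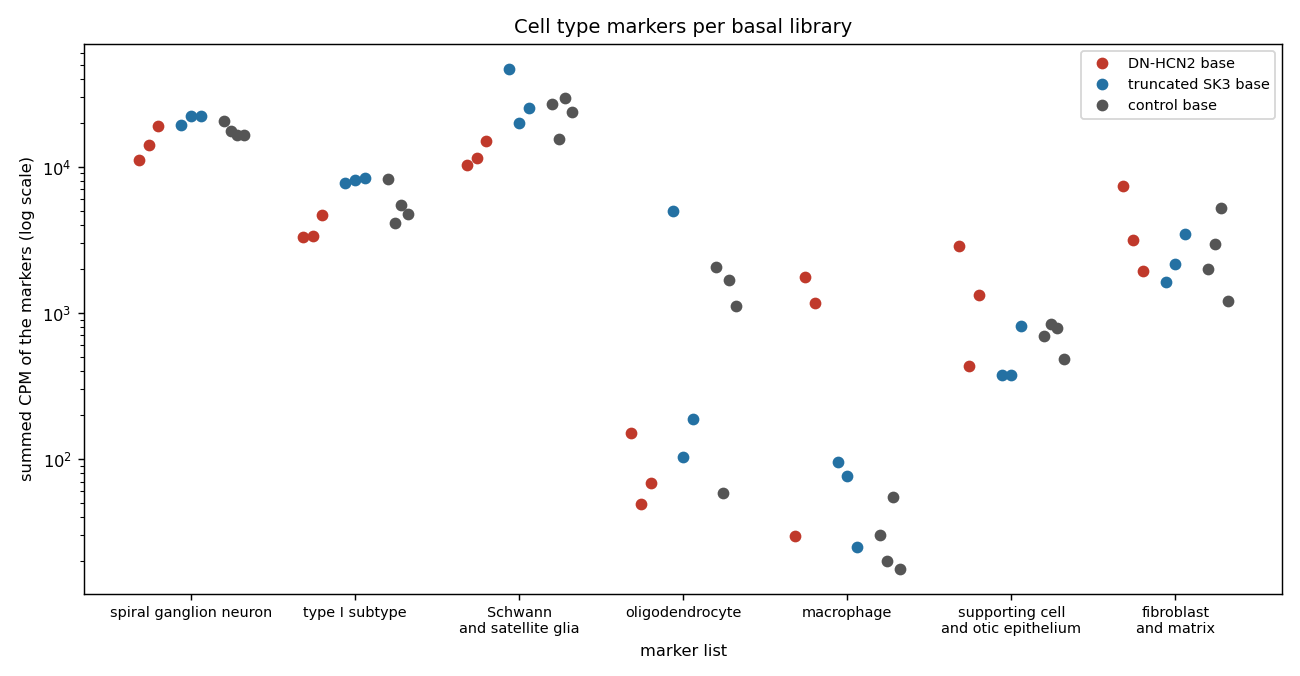
Summed CPM (log axis) of 7 lists of cell type markers in each library of DN-HCN2 base, truncated SK3 base and control base, 1 point per library. Glial sums of the 3 DN-HCN2 base libraries, 10220 to 15021 CPM, lie below those of truncated SK3 base, while macrophage sums reach 1755 and 1175 CPM in 2 DN-HCN2 base libraries.

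The transcripts of the 2 targeted channels did not separate the groups. Hcn2 had 29.7, 21.6 and 34.9 CPM in DN-HCN2 base, against 10.6, 11.5 and 81.9 CPM in truncated SK3 base, and 62.0, 89.8, 9.84 and 85.0 CPM in control base. The groups overlapped, and the log2 fold change of DN-HCN2 over truncated SK3 was -0.27 ± 0.93 (SE; edgeR quasi-likelihood test, Benjamini-Hochberg adjusted p = 0.929). Kcnn3 was near the detection limit, with 0.469, 0 and 0.917 CPM in DN-HCN2 base, against 0.204, 0.484 and 0.0967 CPM in truncated SK3 base. Its log2 fold change was 0.79 ± 1.81 (edgeR adjusted p = 0.885). Whether reads of the inserts were counted under these symbols was not tested, so these 2 genes check no label. Of the other HCN channels, Hcn3 had 17.4, 18.4 and 23.6 CPM in DN-HCN2 base, against 0.408, 8.48 and 6.09 CPM in truncated SK3 base. The groups did not overlap, but the gene was not called (edgeR adjusted p = 0.201). Of all 5 HCN channels, 1 had groups that did not overlap and was higher, and 1 had such groups and was lower, beside 15.1% of all genes. A negative log2 fold change was found in 4 of the 5, and none was called.

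Between the constructs, 36 genes were called at a false discovery rate of 0.05, 0.241% of those tested. Of these, 10 were higher in DN-HCN2 base (0.0668%) and 26 were lower (0.174%). In all 36 the 2 groups did not overlap, as was so for 15.1% of all tested genes. The fitted log2 fold changes of the falls ran from -8.83 to -0.83 and those of the rises from 1.12 to 5.75. Without adjustment, 2184 genes (14.6%) had p under 0.05, 1078 of them higher (7.2%) and 1106 lower (7.39%). Just inside the threshold stood Sprn and Fnbp1l (edgeR adjusted p = 0.0444 and 0.0452), and just outside it stood Slc39a9, Cdh2 and Spg7 (0.0534, 0.0541 and 0.0541). Most calls depended on which libraries were in the fit, the control libraries included. Those enter the low-count filter, the scaling and the shared spread, but not the 2 groups compared. Without 1 control library, 14 to 26 of the 36 calls were kept. Without 1 basal library, 10, 17 and 23 of the 36 calls were lost for DN-HCN2 base replicates 1, 2 and 3, and 29, 24 and 7 for truncated SK3 base replicates 1, 2 and 3. Called in all 6 of those fits were 5 genes, Gprc5b, Map3k1, Lancl3, Fbxo40 and Adamts5, all lower in DN-HCN2 base. DESeq2 called 36 of the 36 too, limma-voom 13, and a fit of the 6 libraries alone 4, which were Gprc5b, Map3k1, Gfap and Mmp14.

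**Figure D2:**
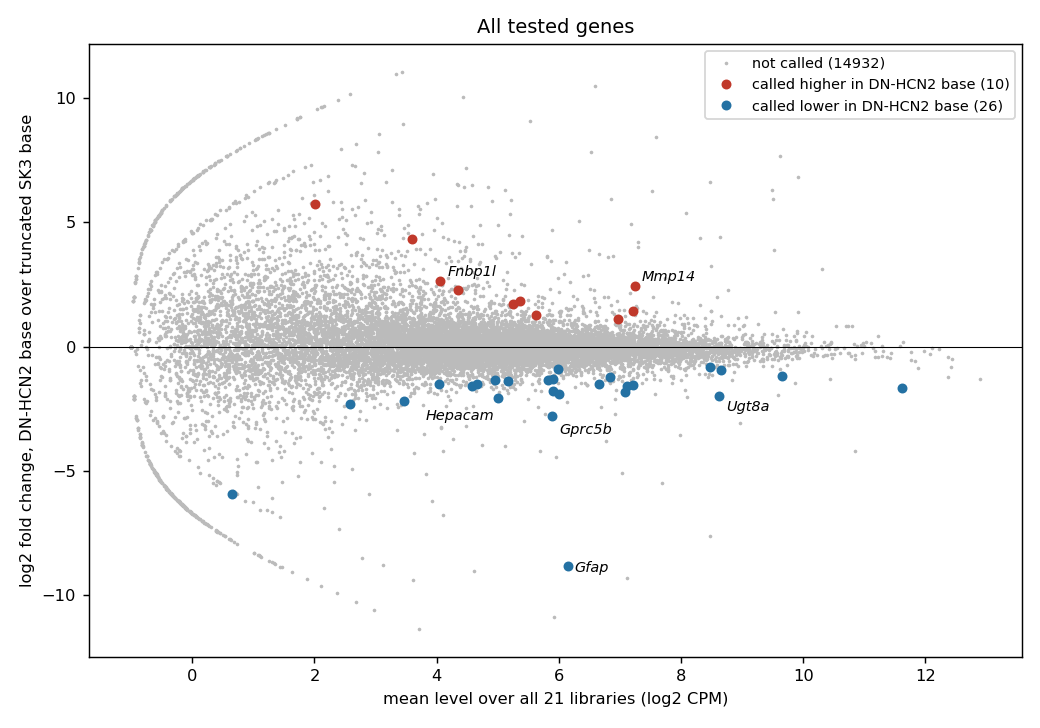
Log2 fold change of DN-HCN2 base over truncated SK3 base for all 14968 tested genes (vertical axis) against their mean log2 CPM over the 21 libraries (horizontal axis). The 10 genes called higher and the 26 called lower are coloured, among the rest that were not called.

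Gprc5b had the smallest p-value of the comparison. It encodes an orphan G-protein-coupled receptor of the retinoic acid-inducible family that is abundant in the nervous system, and lies on the minus strand of chromosome 7 at 118972047 to 118995211 (GRCm38). It stood at 17.9, 12.5 and 14.4 CPM in DN-HCN2 base, against 106, 117 and 83.1 CPM in truncated SK3 base. Control base held 26.8, 34.5, 38.2 and 35.6 CPM, above every DN-HCN2 base library and below every truncated SK3 base library. The log2 fold change between the constructs was -2.77 ± 0.23 (edgeR adjusted p = 1.72e-06), and the adjusted p stayed between 3.15e-06 and 1.04e-04 when any 1 basal library was left out. In the apex, with no library in common, Gprc5b had 21.6, 18.8, 21.5 and 30.8 CPM in DN-HCN2, against 123, 96.8 and 109 CPM in truncated SK3. The apical groups did not overlap either, and the difference between base and apex, -0.53 on the log2 scale, had an unadjusted p of 0.094. Of the other family members, Gprc5c and Gprc5a were not called (edgeR adjusted p = 0.219 and 0.393). The 250 bases before the start of Gprc5b are shown because this gene separated the constructs most firmly; they held none of the 7 motifs searched, which are named beside the promoters of Sema5a and Mmp14. The sequence is from RefSeq on GRCm38.p6, minus strand, chr7:118995212-118995461.
Gprc5b: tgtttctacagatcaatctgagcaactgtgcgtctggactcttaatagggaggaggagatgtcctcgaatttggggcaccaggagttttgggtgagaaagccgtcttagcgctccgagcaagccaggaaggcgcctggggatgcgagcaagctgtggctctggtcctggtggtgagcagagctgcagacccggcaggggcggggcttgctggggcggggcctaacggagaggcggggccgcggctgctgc

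Map3k1, the kinase at the head of a cascade to JNK, was the second of the 5. It had 26.2, 25.5 and 28.7 CPM in DN-HCN2 base, against 119, 97.4 and 87.2 CPM in truncated SK3 base, and 98.9 to 133 CPM in control base. The DN-HCN2 base libraries lay close together and below all libraries of both other groups. On the log2 scale the difference was -1.91 ± 0.22 (edgeR adjusted p = 2.41e-04), and in the apex it was -1.19, with 30.8, 35.9, 38.7 and 59.8 CPM in DN-HCN2, against 105, 98.2 and 78.8 CPM in truncated SK3. Map3k1 lies on chromosome 13 at 111746428 to 111808993, minus strand.

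The other three of these 5 genes had small fold changes in the apex, and for none of them did the test of the difference between base and apex pass the adjustment (unadjusted p = 2.71e-04 for Lancl3, 2.14e-04 for Fbxo40 and 8.25e-06 for Adamts5). Lancl3, a member of the LanC-like family (chromosome X, 9199902 to 9268085, plus strand), had 17.4, 32.1 and 30.8 CPM in DN-HCN2 base, against 74.0, 87.3 and 116 CPM in truncated SK3 base. Control base had 66.7 to 105 CPM, so the DN-HCN2 base libraries were the low ones. Its log2 fold change was -1.79 ± 0.29 in the base (edgeR adjusted p = 0.00939) and -0.10 in the apex.

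Fbxo40, an F-box protein known from the degradation of an insulin receptor substrate in muscle (chromosome 16, 36963460 to 36990467, minus strand), had 38.4, 56.5 and 62.0 CPM in DN-HCN2 base, against 146, 164 and 134 CPM in truncated SK3 base. Control base had 109 to 156 CPM, again above every DN-HCN2 base library. The constructs differed by -1.50 ± 0.23 on the log2 scale in the base (edgeR adjusted p = 0.00695) and -0.11 in the apex.

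Adamts5, a secreted protease that cleaves aggrecan and other proteoglycans of the matrix (chromosome 16, 85856173 to 85901828, minus strand), had 62.6, 67.7 and 73.6 CPM in DN-HCN2 base, against 170, 117 and 194 CPM in truncated SK3 base. Control base had 144 to 171 CPM, and the DN-HCN2 base libraries were below all of these. On the log2 scale the difference was -1.24 ± 0.18 in the base (edgeR adjusted p = 0.00587) and 0.23 in the apex, where the groups overlapped at 116 to 175 CPM in DN-HCN2, against 109 to 129 CPM in truncated SK3. The difference between base and apex, -1.46 ± 0.25, had an adjusted p of 0.0618 by the edgeR test and was not called. With GC content and transcript length taken out, the basal adjusted p of Adamts5 was 0.123.

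**Figure D3:**
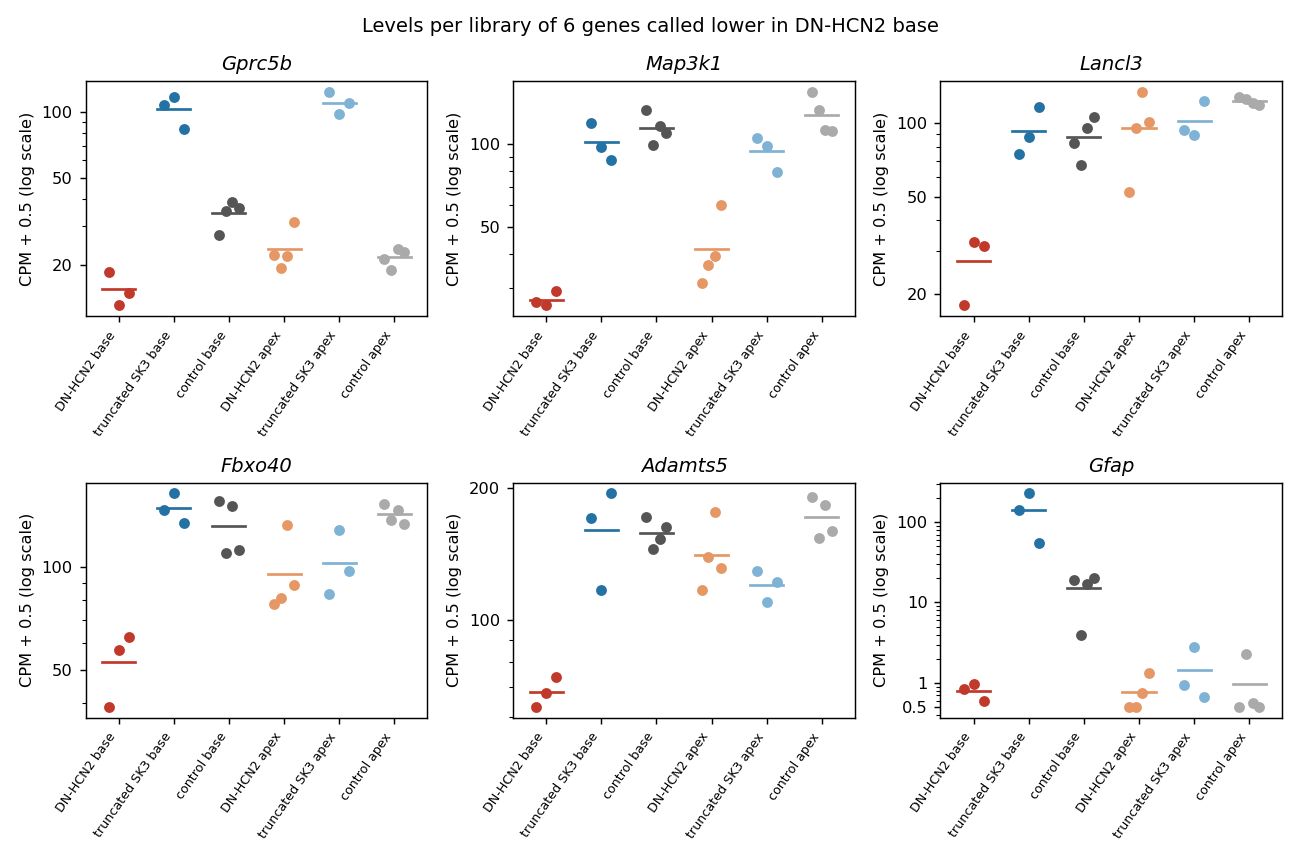
CPM plus 0.5 (log axis) of Gprc5b, Map3k1, Lancl3, Fbxo40, Adamts5 and Gfap in every library of the 6 groups, with a line at each group's arithmetic mean. Gprc5b separates DN-HCN2 from truncated SK3 in both regions, with 12.5 to 17.9 against 83.1 to 117 CPM in the base, while Adamts5 does so in the base and not in the apex.

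Among the other called falls were 4 genes known from glia or myelin, gathered by what they do after their values were seen and not from a list. They stand beside the lower glial marker sums of all DN-HCN2 base libraries. Ugt8a, which makes the galactosylceramide of myelin (chromosome 3, 125865271 to 125938619, minus strand), had 116, 140 and 216 CPM in DN-HCN2 base, against 1115, 394 and 375 CPM in truncated SK3 base. Truncated SK3 base replicate 1, the richest of the construct libraries of the base in oligodendrocyte markers, was the highest. The log2 fold change was -2.0 ± 0.37 (edgeR adjusted p = 0.0318); without that replicate it was -1.29 (adjusted p = 0.143), and the call was also lost without DN-HCN2 base replicate 1 or 2 (0.0564 and 0.0773).

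Hepacam, an adhesion protein of glia (chromosome 9, 37367351 to 37386575, plus strand), had 9.71, 14.1 and 12.5 CPM in DN-HCN2 base, against 73.0, 39.1 and 40.0 CPM in truncated SK3 base, and 25.5 to 40.0 CPM in control base. The DN-HCN2 base libraries were below both groups, with a log2 fold change of -2.07 ± 0.34 (edgeR adjusted p = 0.00939). Without truncated SK3 base replicate 1 the fold change was -1.71 and the call was lost (adjusted p = 0.0852).

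Kcnj10, the inward rectifier potassium channel of glia (chromosome 1, 172341210 to 172374085, plus strand), had 66.4, 60.6 and 101 CPM in DN-HCN2 base, against 266, 235 and 160 CPM in truncated SK3 base, and 132 to 191 CPM in control base. No DN-HCN2 base library reached the level of either other group. Between the constructs the log2 fold change was -1.54 ± 0.28 (edgeR adjusted p = 0.0271), and the call was lost without DN-HCN2 base replicate 2 or truncated SK3 base replicate 1 or 2 (adjusted p up to 0.123).

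Gfap, the intermediate filament of astrocytes and of Schwann cells that make no myelin, had the largest fitted fall of the called genes. It had 0.335, 0.463 and 0.0917 CPM in DN-HCN2 base, which is 11 counts over the group, against 139, 226 and 54.3 CPM in truncated SK3 base. Control base lay between them at 18.4, 3.46, 16.6 and 19.8 CPM, so truncated SK3 base was the high group and DN-HCN2 base the low one. Its fitted log2 fold change was -8.83 ± 1.54 (edgeR adjusted p = 0.0271). The call was lost without DN-HCN2 base replicate 2 or 3 or truncated SK3 base replicate 1 or 2 (adjusted p = 0.0573, 0.0685, 0.0905 and 0.0619) and with limma-voom (0.158). Apical Gfap was at 0.822 CPM or less in DN-HCN2 and at 2.30 CPM or less in truncated SK3. Gfap lies on chromosome 11 at 102887336 to 102900912, minus strand.

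Of the 21 Schwann and satellite glia markers, 1 was called lower and none higher. At an unadjusted p under 0.05, 15 of the 21 were lower and 0 higher, beside 7.39% and 7.2% of all genes. The median log2 fold change of the list was -1.30 in the base and -0.22 in the apex, beside a median of 0.01 over all genes in the base. Without truncated SK3 base replicate 1 there were 10 lower members and a median of -0.79, and without both macrophage-rich libraries 6 and -1.04. Named after their values were seen, Pmp22, a myelin protein, had 3128, 3785 and 4917 CPM in DN-HCN2 base, against 8188, 5326 and 7365 CPM in truncated SK3 base, while Sox10, the transcription factor of the lineage, overlapped at 63.7, 99.9 and 126 CPM, against 86.0, 80.7 and 121 CPM. The groups did not overlap for Pmp22 and overlapped for Sox10. Of the 13 oligodendrocyte markers none was called, 7 were lower at an unadjusted p under 0.05, and the fitted median of -7.61 (-5.44 with genes at 0 in a group set to a floor of 3 counts over the group) became -0.79 without truncated SK3 base replicate 1.

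Genes of cholesterol synthesis, which neurons and myelinating glia both run, were mostly lower without a call. Of 24 members, 11 were lower and 0 higher at an unadjusted p under 0.05 (45.8%, beside 14.6% of all genes). A negative log2 fold change was found in 22 (48.9% of all genes had one), and the median was -0.72 in the base and 0.25 in the apex. Hmgcs1, an early enzyme of the pathway, had 168, 316 and 291 CPM in DN-HCN2 base, against 1175, 334 and 437 CPM in truncated SK3 base (log2 fold change -1.33, edgeR adjusted p = 0.116). Its highest library in the compared groups was truncated SK3 base replicate 1, the richest of them in oligodendrocyte markers. Without truncated SK3 base replicate 1, 2 members were lower and the median was -0.28, and without DN-HCN2 base replicate 1 they were 7 and -0.54.

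Genes of axon guidance, adhesion and release gave single calls. Sema5a, a semaphorin that steers axons (chromosome 15, 32244810 to 32696341, plus strand), had 89.0, 59.0 and 59.4 CPM in DN-HCN2 base, against 250, 158 and 215 CPM in truncated SK3 base, and 234 to 302 CPM in control base. The DN-HCN2 base libraries were the low ones, with a log2 fold change of -1.58 ± 0.27 (edgeR adjusted p = 0.0157), against -0.24 in the apex. The call was lost without DN-HCN2 base replicate 3 or truncated SK3 base replicate 1 (adjusted p up to 0.0905). Of 55 axon guidance genes Sema5a was the only one called. At an unadjusted p under 0.05, 6 were lower and 3 higher (16.4%, beside 14.6% of all genes), and the median was 0.10.

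Vamp1, a vesicle SNARE of the synaptobrevin family (chromosome 6, 125215551 to 125245964, plus strand), had 429.5, 481 and 554 CPM in DN-HCN2 base, against 1162, 1199.7 and 997 CPM in truncated SK3 base, and 683 to 970.1 CPM in control base. The construct groups did not overlap and control lay between them. The log2 fold change was -1.20 ± 0.24 (edgeR adjusted p = 0.0408) in the base and 0.10 in the apex, and the call held only without truncated SK3 base replicate 3, with adjusted p up to 0.132 in the other 5 fits without 1 basal library. Of 36 genes of the synaptic vesicle and release, Vamp1 was the only one called. At an unadjusted p under 0.05, 9 were lower and 5 higher (38.9%, beside 14.6% of all genes), and the median was -0.20. That median was -0.01, with 18 positive and 18 negative, without DN-HCN2 base replicate 1, -0.10 without truncated SK3 base replicate 2 and -0.32 without DN-HCN2 base replicate 3. Syp, the vesicle protein synaptophysin (named after its values were seen), had 349, 745 and 553 CPM in DN-HCN2 base, against 951, 1358 and 780.3 CPM in truncated SK3 base, and was not called (edgeR adjusted p = 0.083).

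Lin7c, a scaffold of the presynaptic terminal, had 33.1, 46.9 and 22.6 CPM in DN-HCN2 base, against 93.1, 78.7 and 80.7 CPM in truncated SK3 base, and 74.9 to 93.1 CPM in control base. DN-HCN2 base was the low group (log2 fold change -1.30 ± 0.26, edgeR adjusted p = 0.0408), and the call was lost without DN-HCN2 base replicate 1 or 3 or truncated SK3 base replicate 1 or 2 (adjusted p up to 0.152). It was the only call among 21 active zone genes, whose median was -0.01. Cdh20, a classical cadherin, had 0.0670, 0 and 0 CPM in DN-HCN2 base, a single count in all (1), against 1.33, 0.888 and 4.16 CPM in truncated SK3 base (67 counts), and 4.89 to 5.77 CPM in control base. It was the only call among 24 cadherins (edgeR adjusted p = 0.0408), and that call was lost in every fit without 1 basal library except that without DN-HCN2 base replicate 1 (adjusted p up to 0.0959).

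Among the remaining falls, Eif5a2, a translation factor, had 76.0, 52.9 and 49.4 CPM in DN-HCN2 base, against 239, 233 and 161 CPM in truncated SK3 base (log2 fold change -1.83 ± 0.36, edgeR adjusted p = 0.0408). Arhgef10, an exchange factor for small GTPases known in humans for a variant with slow nerve conduction, had 15.3, 10.3 and 9.72 CPM in DN-HCN2 base, against 36.5, 40.6 and 28.4 CPM in truncated SK3 base (log2 fold change -1.58 ± 0.30, edgeR adjusted p = 0.0332). Control base overlapped truncated SK3 base for both genes, with 227 to 323 CPM of Eif5a2 and 26.5 to 36.7 CPM of Arhgef10. Each was called in 2 of the 6 fits without 1 basal library, those without DN-HCN2 base replicate 1 or truncated SK3 base replicate 3. Psap, the precursor of lysosomal saposins, and Slc38a2, a carrier of neutral amino acids, were named after their values were seen. Psap had 264, 306 and 260 CPM in DN-HCN2 base, against 463, 587 and 525 CPM in truncated SK3 base. Slc38a2 had 263, 278 and 223 CPM in DN-HCN2 base, against 445, 502 and 414 CPM in truncated SK3 base. Both were among the smallest called falls, at -0.92 ± 0.19 and -0.83 ± 0.16 on the log2 scale (edgeR adjusted p = 0.0444 and 0.0356), and were called in 1 and 3 of the 6 fits without 1 basal library.

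Of the DN-HCN2 base libraries, replicates 2 and 3 were rich in macrophage markers and replicate 1 was not. In all 10 genes called higher, each DN-HCN2 base library, replicate 1 included, was above every truncated SK3 base library. Groups that did not overlap were a trait of all 36 called genes, so this goes with how the genes were chosen. The part of macrophages in these rises was not tested beyond the fits without these libraries. Mmp14, a membrane-bound matrix protease (chromosome 14, 54431612 to 54445364, plus strand), had 250, 297 and 215 CPM in DN-HCN2 base, against 33.1, 52.6 and 55.7 CPM in truncated SK3 base, and 46.1 to 78.6 CPM in control base. All DN-HCN2 base libraries were above both other groups. DN-HCN2 base replicate 1 held few macrophage markers (29.5 CPM) but the most fibroblast and matrix and supporting cell markers of the 6 libraries (7337 and 2854 CPM), and the part of these cells was not tested. The log2 fold change was 2.43 ± 0.42 (edgeR adjusted p = 0.0165); it was 2.44 without DN-HCN2 base replicate 1 (adjusted p = 0.0224) and 2.44 without both macrophage-rich libraries (0.0502). The call was lost without truncated SK3 base replicate 1 or 2 (adjusted p = 0.100 and 0.0515). In the apex Mmp14 overlapped, at 241, 135, 56.4 and 99.7 CPM in DN-HCN2, against 148, 101 and 56.0 CPM in truncated SK3.

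Gm2a, the activator that presents GM2 ganglioside to its lysosomal enzyme (chromosome 11, 55098115 to 55113029, plus strand), had 204, 238 and 204 CPM in DN-HCN2 base, against 66.6, 98.2 and 72.3 CPM in truncated SK3 base, and 72.2 to 116 CPM in control base. DN-HCN2 base was the high group, with a log2 fold change of 1.45 ± 0.26 (edgeR adjusted p = 0.0244), which became 1.34 (adjusted p = 0.128) without truncated SK3 base replicate 1. In the apex the groups overlapped, at 62.1 to 119 CPM in DN-HCN2, against 100 to 191 CPM in truncated SK3, with a log2 fold change of -0.71 and no call. The difference between base and apex, 2.16 ± 0.35, had the smallest unadjusted p of all genes (4.77e-06) and an edgeR adjusted p of 0.0618.

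Rps6ka1, the kinase RSK1 that acts downstream of ERK, had 56.8, 47.8 and 85.9 CPM in DN-HCN2 base, against 11.5, 23.2 and 18.2 CPM in truncated SK3 base (log2 fold change 1.85 ± 0.35, edgeR adjusted p = 0.0318). Klf10, an early response transcription factor, had 39.2, 78.9 and 54.9 CPM in DN-HCN2 base, against 10.8, 13.5 and 27.6 CPM in truncated SK3 base (log2 fold change 1.74 ± 0.36, edgeR adjusted p = 0.0444). Control base overlapped truncated SK3 base for both, with 17.4 to 26.4 CPM of Rps6ka1 and 13.6 to 25.0 CPM of Klf10. The call of Rps6ka1 was lost without DN-HCN2 base replicate 3 or truncated SK3 base replicate 1, and that of Klf10 without DN-HCN2 base replicate 2 or 3 or truncated SK3 base replicate 1 or 2 (adjusted p up to 0.149 and 0.207).

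Klf10 was the only call among 26 immediate early genes, the fast transcriptional answer to activity and to other stimuli. Of the list, 22 had a positive log2 fold change (50.8% of all genes did), and the median was 0.56 in the base and 0.12 in the apex. At an unadjusted p under 0.05, 3 were higher and 0 lower (11.5%, beside 14.6% of all genes). The basal median was 0.33 (18 positive) without DN-HCN2 base replicate 1, 0.36 without truncated SK3 base replicate 2, 0.89 without DN-HCN2 base replicate 3 and 0.85, with 8 members higher, without truncated SK3 base replicate 3. The best known members, named after their values were seen, were not called, with log2 fold changes of 0.02 for Fos and 0.52 for Egr1. Of 45 genes that link calcium to CREB, Rps6ka1 was the only one called, with a median of 0.01. At an unadjusted p under 0.05, 4 were lower and 4 higher (17.8%, beside the same 14.6%).

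A further 4 genes rose. Fnbp1l, an F-BAR protein that links membrane curvature to actin, had 49.2, 21.9 and 12.2 CPM in DN-HCN2 base, against 4.38, 3.23 and 5.80 CPM in truncated SK3 base (log2 fold change 2.63 ± 0.55, edgeR adjusted p = 0.0452). Sprn, the prion-like protein Shadoo, had 30.2, 28.8 and 40.0 CPM in DN-HCN2 base, against 3.77, 12.2 and 4.06 CPM in truncated SK3 base (log2 fold change 2.30 ± 0.48, edgeR adjusted p = 0.0444). Control base lay at 12.7 to 24.8 CPM of Sprn, above truncated SK3 base and below DN-HCN2 base. Tmem165, a Golgi membrane protein needed for glycosylation, had 68.0, 62.5 and 76.3 CPM in DN-HCN2 base, against 25.6, 26.0 and 34.0 CPM in truncated SK3 base (log2 fold change 1.27 ± 0.26, edgeR adjusted p = 0.0408). Pex19, the receptor that brings membrane proteins to peroxisomes, had 140, 141 and 234 CPM in DN-HCN2 base, against 81.4, 80.8 and 73.9 CPM in truncated SK3 base (log2 fold change 1.12 ± 0.22, edgeR adjusted p = 0.0408). For Pex19 control base overlapped DN-HCN2 base, at 127 to 163 CPM, and the apical log2 fold change was 1.01. These 4 genes were called in 2 or 3 of the 6 fits without 1 basal library, with adjusted p up to 0.207.

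Gm4184, listed as a pseudogene in RefSeq, was named after its values were seen, since it differed in both regions. It had 18.3, 26.1 and 22.1 CPM in DN-HCN2 base, against 1.22, 0.484 and 1.55 CPM in truncated SK3 base and at most 1.41 CPM in control base. The DN-HCN2 libraries of the apex were also the high ones, at 8.46 to 26.8 CPM, against 0.440 to 1.43 CPM in truncated SK3 apex. Its log2 fold change was 4.35 ± 0.70 in the base (edgeR adjusted p = 0.00939) and 4.19 in the apex, and the basal call was lost without truncated SK3 base replicate 1 or 2 (adjusted p up to 0.0717). How the counter assigned reads shared with a parent gene is not given in the sources used here.

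Promoters of a fall and of a rise are shown because both held the same EGR letters. RefSeq windows of 250 bases upstream were found for 27 of the 36 called genes, and each motif was searched on both strands. The EGR motif GCGGGGGCG was in 2.57% of all 32851 windows and in those of 4 called genes, Hhip, Mmp14, Rps6ka1 and Sema5a. The CRE motif TGACGTCA was in 1.55% of all windows and 1 called gene, the AP-1 motif TGANTCA in 6.75% and 1, the CArG box in 1.47% and 1, the E-box CACGTG in 6.02% and 2, the CCAAT box (letters CCAAT) in 33.8% and 10, and the TATA box (letters TATAAA) in 12.4% and 0. In Sema5a the EGR letters lay 64 to 56 bases upstream of the start. In Mmp14 they lay 17 to 9 bases upstream, beside CCAAT boxes on the other strand at 23 to 19 and 69 to 65 bases. Both windows are from RefSeq on GRCm38.p6, plus strand, at chr15:32244563-32244812 for Sema5a and chr14:54431348-54431597 for Mmp14, with capitals on the motif letters. All windows outnumber the tested genes, so their shares are not those of the set that the calls came from. Whether any motif was more frequent among called genes was not tested. A match is a run of letters and was not tested as a binding site.
Sema5a: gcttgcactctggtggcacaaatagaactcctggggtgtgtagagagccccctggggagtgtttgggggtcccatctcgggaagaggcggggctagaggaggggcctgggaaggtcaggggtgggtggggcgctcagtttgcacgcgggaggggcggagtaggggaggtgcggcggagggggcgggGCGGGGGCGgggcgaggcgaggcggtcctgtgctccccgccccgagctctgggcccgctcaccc
Mmp14: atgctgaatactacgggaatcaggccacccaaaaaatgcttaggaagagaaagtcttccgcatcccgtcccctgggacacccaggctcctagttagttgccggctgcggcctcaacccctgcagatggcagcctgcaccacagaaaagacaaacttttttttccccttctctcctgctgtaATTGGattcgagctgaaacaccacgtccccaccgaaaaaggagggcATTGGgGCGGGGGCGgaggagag

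Shares of members at an unadjusted p under 0.05 differed between the gene lists. Of the 40 lists, 28 had a share above the 14.6% of all genes and 12 did not. Of 35 voltage-gated potassium channels none was called, with 7 lower and 4 higher at an unadjusted p under 0.05 (31.4%). Their median was -0.12 and ran from -0.65 without DN-HCN2 base replicate 1 to 0.09 without truncated SK3 base replicate 2. Among 18 inward rectifier and leak potassium channels Kcnj10 was the only call, with 4 lower and 1 higher (27.8%). The 9 voltage-gated sodium channels had no call, with 2 lower and 1 higher (33.3%). The 35 genes of neurofilaments and the axonal cytoskeleton had none either, with 7 lower and 5 higher (34.3%). Shares were smaller for 14 voltage-gated calcium channels (7.14%), 33 genes of glutamate receptors and the postsynaptic density (6.06%) and 53 synaptic adhesion genes (17%), none of them called. Without a call, 19 glycolysis genes had 6 lower and 2 higher (42.1%), 24 genes of the ER stress and integrated stress response 3 and 6 (37.5%), and 10 type II neuron markers 1 and 5 (60%).

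Genes of the mitochondrial respiratory chain had small values of mostly one sign. Of 72 members none was called, and 67 had a negative log2 fold change in the base (48.9% of all genes did). The median was -0.23 in the base, while it was 0.33 in the apex. Only 4 were lower and 0 higher at an unadjusted p under 0.05 (5.56%, beside 14.6% of all genes). For the difference between base and apex, 26 of 72 had an unadjusted p under 0.05, beside 9.04% of all genes. Without truncated SK3 base replicate 3 the count of negative members was 41 and the median -0.02, and without DN-HCN2 base replicate 1 they were 53 and -0.10. Cytosolic ribosomal proteins had 47 negative of 60 (beside the same 48.9% of all genes) and a median of -0.15, with 0.20 in the apex. Of these 60, 28 were negative without DN-HCN2 base replicate 3 (median 0.00) and 28 without truncated SK3 base replicate 3 (median 0.01).

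Neuron markers were not called as single genes. Of 15 spiral ganglion neuron markers 4 were lower and 2 higher at an unadjusted p under 0.05 (40%). The median log2 fold change of the list was -0.21, with 10 negative and 5 positive. Gata3, 1 of the 2 higher, had 236, 43.2 and 249 CPM in DN-HCN2 base, against 42.8, 69.7 and 51.1 CPM in truncated SK3 base. Its groups overlapped (log2 fold change 1.69, edgeR adjusted p = 0.254). Calb2, the calcium buffer calretinin and a marker of a type I neuron subtype, had 2716, 2599.6 and 4213 CPM in DN-HCN2 base, against 7174, 7301 and 7897 CPM in truncated SK3 base, and 3308 to 7581 CPM in control base. The construct groups did not overlap, but the edgeR adjusted p was 0.0837. Macrophage markers were all positive, 15 of 15 (50.8% of all genes were), with a median of 3.55. At an unadjusted p under 0.05, 9 were higher (60%, beside 14.6% of all genes), and 5 to 10 were without 1 basal library. Without DN-HCN2 base replicates 2 and 3 the median was -0.56.

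**Figure D4:**
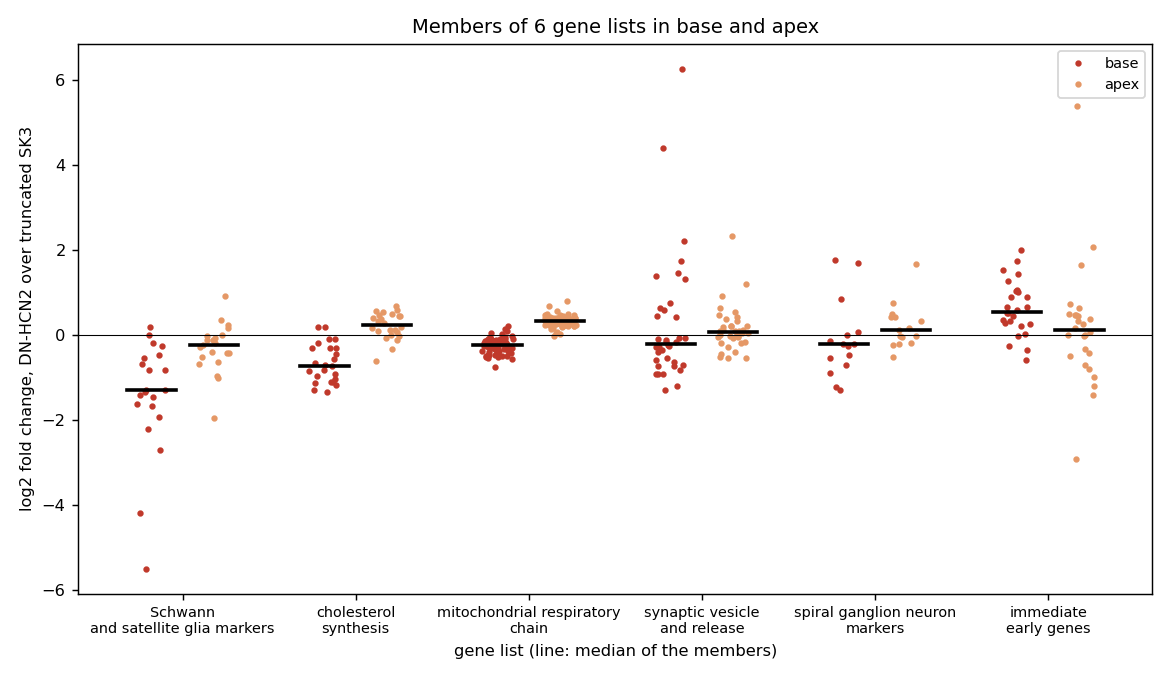
Log2 fold change of DN-HCN2 over truncated SK3 for each tested member of 6 gene lists in the base and in the apex, with a line at each median. Schwann and satellite glia markers have a median of -1.30 in the base and -0.22 in the apex, and the mitochondrial respiratory chain -0.23 and 0.33.

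The same contrast in the apex rests on 7 other libraries. There 3 genes were called (0.02%), Gprc5b, Map3k1 and Gm4184, which were also among the basal calls. Of the 36 genes called in the base, 29 (80.6%) had the same sign in the apex, 24 of the falls and 5 of the rises, beside 53.6% of all tested genes. The median absolute log2 fold change of the 36 was 1.63 in the base and 0.47 in the apex, beside 0.43 and 0.33 over all genes. The genes were called on the basal values, so a smaller apical median is part of how they were chosen. The test of the difference between base and apex called 0 genes (0%) by edgeR, with 1353 (9.04%) at an unadjusted p under 0.05, while DESeq2 called 111 and limma-voom 1. Of the 36 genes, 26 (72.2%) had an unadjusted p under 0.05 in that test, a share the choice of the genes in the base also affects.

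**Figure D5:**
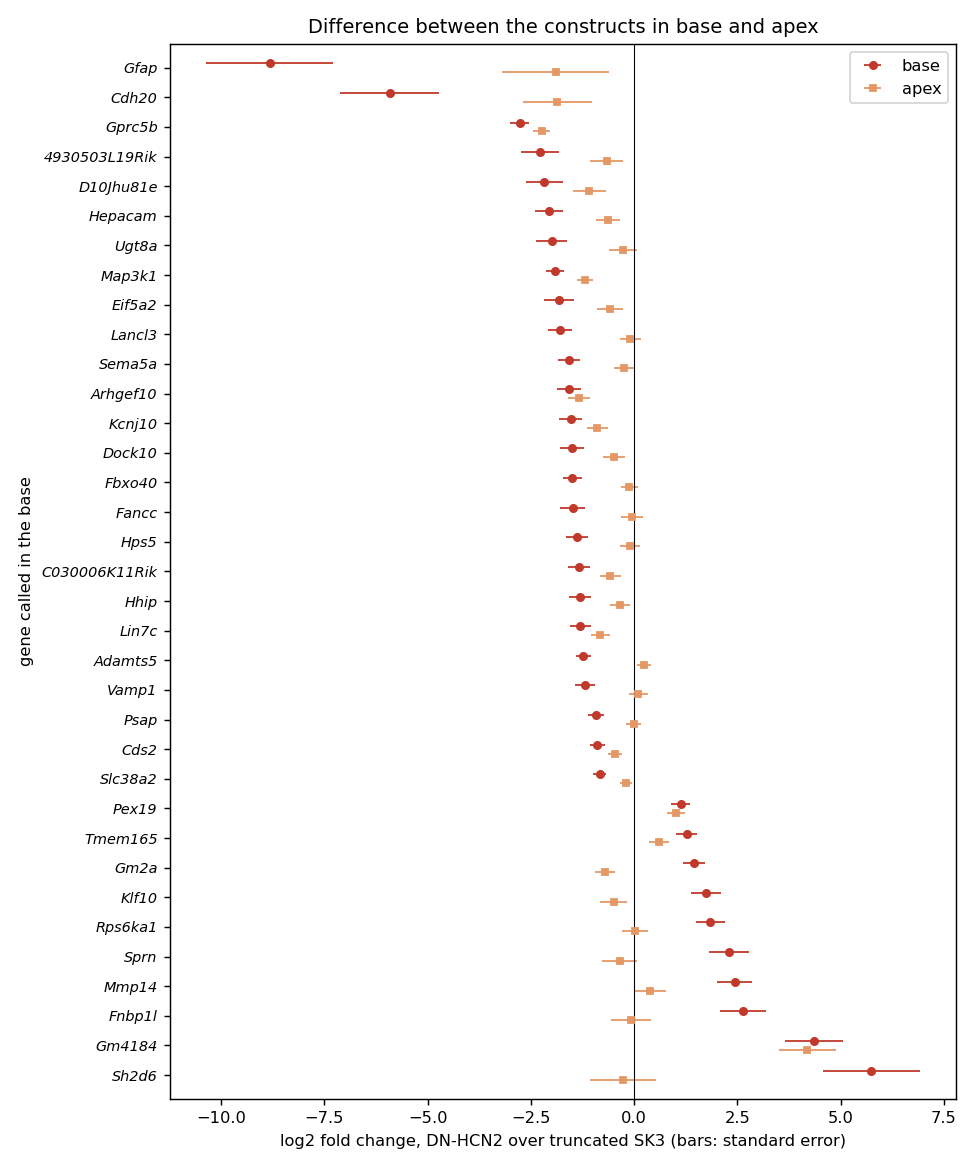
Log2 fold change of DN-HCN2 over truncated SK3 for 35 of the 36 genes called in the base, with standard errors, in the base (circles) and in the apex (squares). Most apical values are on the same side of 0 as the basal ones, and Gprc5b is far from 0 in both regions, at -2.77 in the base and -2.24 in the apex.

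Set against control base, the 2 construct groups gave unequal numbers of calls. DN-HCN2 base over control base called 320 genes (2.14%), and truncated SK3 base over control base called 22 (0.147%). These counts share the control libraries with each other and their construct libraries with the direct comparison. Map3k1, Lancl3, Fbxo40 and Adamts5 averaged 26.8 ± 1.70, 26.8 ± 8.13, 52.3 ± 12.3 and 67.9 ± 5.49 CPM in DN-HCN2 base (SD, n = 3). In truncated SK3 base they averaged 101 ± 16.0, 92.6 ± 21.7, 148 ± 15 and 160 ± 39.5 CPM (SD, n = 3), and in control base 114 ± 14.3, 87.4 ± 16.7, 132 ± 24.8 and 157 ± 11.7 CPM (SD, n = 4). For these 4 genes truncated SK3 base and control base overlapped. Gprc5b differed from that pattern, at 14.95 ± 2.76 CPM in DN-HCN2 base, 102 ± 17.2 CPM in truncated SK3 base and 33.8 ± 4.88 CPM in control base. A list of 21 genes taken from an earlier analysis of these same libraries held 3 called falls, Gprc5b, Map3k1 and Sema5a, with a median of -0.91; since the list came from these samples, it is no independent evidence of a direction.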

How the data were processed

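The authors deposited one table of read counts per gene symbol, with whole numbers that were not normalized. Trimmomatic, HISAT2, DESeq2 and the builds GRCm38 and mm10 are named without versions, per the submitters' processing notes; the counter, its strand setting and its treatment of shared reads are not given in the sources used here. Samples were grouped by title. The last column is headed by the third truncated SK3 base replicate and a line-end character, and was used as that library. The table has 21878 lines, 3555 at 0 throughout and 27 with a date in place of a symbol; none of the last is named.

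filterByExpr kept 14968 genes. Counts of all 21 libraries (10411634 to 15138780 per library) were scaled by TMM and fitted with edgeR 4.0.16 (R 4.3.3) by the robust quasi-likelihood test, 1 mean per group, with Benjamini-Hochberg adjustment over all tested genes and calls at a false discovery rate of 0.05. CPM are counts scaled to a common TMM-adjusted library total, SE is the log2 fold change over the root of F, and SDs are over libraries. Summed marker CPM were compared by an exact permutation test. Coordinates are from GENCODE M21 (GRCm38), which held 14455 tested symbols (96.6%). No called gene shared 20% or more of its 50-base stretches with another gene.

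Named were Hcn2 and Kcnn3, the 12 largest rises and falls (mean of 10 CPM or more in one group, predicted genes left out), up to 4 called members of each of 40 gene lists (or the 2 smallest p-values), the HCN and Gprc5 families and the 10 smallest p-values of the base against apex test; other names are marked as chosen after their values were seen. The members and lists were chosen with earlier results of these data known. Alternatives were RLE scaling, other filters, DESeq2 1.42.0, limma-voom 3.58.1, only the groups compared, the replicate block, and libraries left out. Chosen after seeing the data were the fits without genes that share sequence and without each apical and control library. The code was tested on simulated data. Figures were drawn with Python 3.11.15 and matplotlib 3.10.9. Only some of the genes so named are described, and a few are not reported here.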

Additional observations from a re-analysis of the deposited data

Results flagged for a closer look

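For the 36 called genes, the 4 control base libraries were checked for a single library far from the rest, a check that chance meets in about 1 of 20 groups, and 2 genes met it. Rps6ka1 had 1 low library at 17.4 CPM, while the other control base libraries had 24.9 to 26.4 CPM. Sprn had 1 high library at 24.8 CPM, while the others had 12.7 to 14.7 CPM. Groups of 3 libraries were too small for this check, and the cause was not tested.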

How the results depend on the processing

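The counts of calls depended on the libraries and the tool more than on the scaling. By edgeR with RLE scaling 13 genes were called higher and 26 lower, with no low-count filter 7 and 19, with a filter of 10 CPM in 3 libraries 15 and 27, and without genes that share sequence 10 and 24. DESeq2 called 271 higher and 264 lower, all 36 of the calls above among them, and 111 for the difference between base and apex; limma-voom called 9, 12 and 1. With GC content and length taken out the counts were 6 higher and 15 lower, and with only the groups compared 3 and 4. Without both macrophage-rich libraries, which leaves DN-HCN2 base with 1 library taken to vary like the other groups, they were 27 and 54, with 17 for the difference between base and apex, and 9 of the 36 calls were shared. Leaving out 1 library in turn gave 0 to 51 genes called higher, 7 to 67 lower and 0 to 3 for the difference between base and apex. The lowest counts, 0 and 7, came without truncated SK3 base replicate 1, and the highest number of lower genes, 67, without DN-HCN2 base replicate 1. Without truncated SK3 base replicate 3 there were 51 higher and 58 lower. Libraries outside the 2 groups compared enter only the filter, the scaling and the shared spread. Among them, the counts ran from 4 higher and 10 lower without control apex replicate 1 to 25 and 60 without DN-HCN2 apex replicate 3. Except without control base replicate 3 (10 and 20), leaving out any 1 control library gave 4 or 5 genes higher and 10 to 15 lower.

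The share of calls that were higher was 27.8% by edgeR, 33.3% with RLE scaling, 50.7% by DESeq2 and 42.9% by limma-voom. No fold change of a called gene changed sign with another tool, scaling, filter or block or without 1 basal library, over the 35 or 36 called genes that each such fit held; the signs without an apical or control library were not tabulated. Deviations from the group mean had correlations of 0.00596, 0.0989 and -0.0367 between same-numbered libraries of the 2 construct groups. Differently numbered libraries had -0.131 to 0.111. With 3 libraries per group, these values cannot tell whether the replicate numbers pair the libraries. With the replicate block in the fit 2 genes were called higher and 9 lower, 11 of 11 among the 36, and 5 and 6 with GC content and length taken out as well. The cause of these changes was not tested. Depth limits genes near 0 in a group, such as Gfap, Cdh20 and Kcnn3, whose fold changes rest on few counts.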
